A study of Mus musculus with 12 samples.

Results

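The genes of mouse chromosomes 12 and 18 were followed along the length of each chromosome in 4 lines of mouse embryonic fibroblasts (MEFs). The 2 chromosomes were chosen by their measured values, because the median RNA level of their genes was higher in each of 3 derived lines than in the parental line, so every value against the parental line is a description and carries no test. The members were the genes placed on chromosome 12 or 18 with a mean of 50 or more counts over the 12 libraries. There were 742 members, 416 of the 830 genes listed on chromosome 12 and 326 of the 599 on chromosome 18, out of 11894 genes of the series that reached this mean. All 742 passed the filter on low counts used for the tests. The first member on chromosome 12 was *Rab10os* and the last *Itgb8*, and on chromosome 18 they were *Crem* and *Tmx3*. *Eno1b*, with a mean of 12151 counts, was left out because it is listed on chromosomes 18 and 4. Just inside the limit lay *2810029C07Rik* (50.5 counts) and *Cdo1* (50.5 counts), and just outside it *Vipr2* (48.9 counts), *Slc10a1* (49.0 counts), *Gpr151* (49.0 counts) and *Dsc2* (46.6 counts).

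Each line was sequenced in 3 biological replicates. The parental line, TM6, comes from C57BL6/J embryos, carries *Pnpt1* neo-flox/neo-flox and was immortalized with SV40 large T antigen. *Pnpt1* encodes PNPase, an RNA-degrading enzyme of mitochondria. The rho0 line kept the same genotype and was made by exposing TM6 cells to ditercalinium dichloride dihydrochloride at 750 ng/mL for 3 weeks, which removes mitochondrial DNA. PKO-1 and PKO-6 were made from TM6 cells with an adenovirus that expresses Cre, which deletes the floxed part of *Pnpt1*. All 4 lines grew with uridine at 50 µg/mL. Each derived line was grown from 1 colony of a single cell, so its 3 replicates are cultures of 1 clone and the treatment cannot be told apart from the clone. The p-values below measure the spread between such cultures.

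A chromosome's RNA output reflects how many copies of it the cells carry and how strongly each gene on each copy is read. Fibroblasts immortalized with a viral T antigen often carry chromosome numbers that differ from those of a normal cell, and single-cell cloning fixes whichever set the founder cell had. Gene regulation acts on top of this, gene by gene, through promoters, imprinting and signalling. Bulk RNA counts do not separate the number of templates from the output of each template, nor fewer cells with a transcript from less of it per cell, and DNA was not analysed here.

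The libraries held 47164860 to 67991378 counts (median 55405647). The ribosomal RNA precursor *Rn45s* took 12.2% to 19.6% of them. *Pnpt1* had 3131 ± 262 normalized counts in the TM6 libraries (SD, n = 3), 5271 ± 230 in rho0, 1240 ± 44.3 in PKO-1 and 1944 ± 250 in PKO-6, over a transcript of which only a part is deleted. Of 10 fibroblast markers, 7 had 10 or more normalized counts in every library, and *Thy1* was under 10 in every library. Their summed level was 537855 to 585844 in TM6, 451770 to 504747 in rho0, 605460 to 655269 in PKO-1 and 355338 to 396285 in PKO-6. Members of the list went different ways: *Fn1* had 109163 to 118009 normalized counts in TM6 and 207244 to 277799 in the derived libraries, while *Col1a1* had 163969 to 196509 in TM6 and 30948 to 103746 in the derived libraries. *Col3a1* had 4230 to 5147 in TM6, 434 to 535 in rho0, 6539 to 7897 in PKO-1 and 268 to 407 in PKO-6. Of the 22 markers of epithelial, endothelial, immune, skeletal muscle and neural cells, *Cd3e* and *Myog* were at 0 throughout. The highest summed levels of these lists were 842 (epithelial, PKO-1), 177 (endothelial, PKO-6), 211 (immune, PKO-6), 82 (skeletal muscle, PKO-1) and 534 (neural, PKO-1). The part of these marker levels in the results below was not tested.

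Genes of chromosome 12 had a median log2 ratio to TM6 of 0.53 ± 0.0083 in rho0 (SD, n = 3), 0.60 ± 0.035 in PKO-1 and 0.52 ± 0.0216 in PKO-6, or 1.45-fold, 1.51-fold and 1.43-fold the TM6 level. A log2 ratio is here a library's log2 CPM (counts scaled to library size) for a gene minus the mean of the 3 TM6 libraries. For a TM6 library, the mean of the other TM6 libraries was subtracted instead. The single rho0 libraries had chromosome 12 medians of 0.54, 0.52 and 0.54. Those of PKO-1 were 0.63, 0.59 and 0.56, and those of PKO-6 were 0.50, 0.51 and 0.55. The TM6 libraries themselves lay between -0.03 and 0.03, so no derived library overlapped with them.

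Chromosome 18 had the second highest median in each line, with 0.40 ± 0.0124 in rho0, 0.43 ± 0.025 in PKO-1 and 0.33 ± 0.0177 in PKO-6, or 1.32-fold, 1.35-fold and 1.26-fold. The single libraries ranged from 0.39 to 0.42 in rho0, from 0.41 to 0.46 in PKO-1 and from 0.32 to 0.35 in PKO-6, while TM6 libraries lay between -0.03 and 0.04. Within each library chromosome 12 stood above chromosome 18, by 0.13 ± 0.0138 in rho0, 0.17 ± 0.0106 in PKO-1 and 0.19 ± 0.00953 in PKO-6. In TM6 this gap was -0.02 to 0.00.

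The 17 other autosomes together had medians of -0.02, 0.02 and -0.01 in rho0, PKO-1 and PKO-6. Single autosomes among them ranged from -0.39 (chromosome 15) to 0.18 (chromosome 17) in rho0, from -0.38 (chromosome 9) to 0.25 (chromosome 6) in PKO-1 and from -0.45 (chromosome 8) to 0.19 (chromosome 1) in PKO-6. The X chromosome lay at -0.80, -0.72 and -0.90. The scale is relative to the library, so that these values do not give amounts of RNA per cell.

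**Figure D1:**
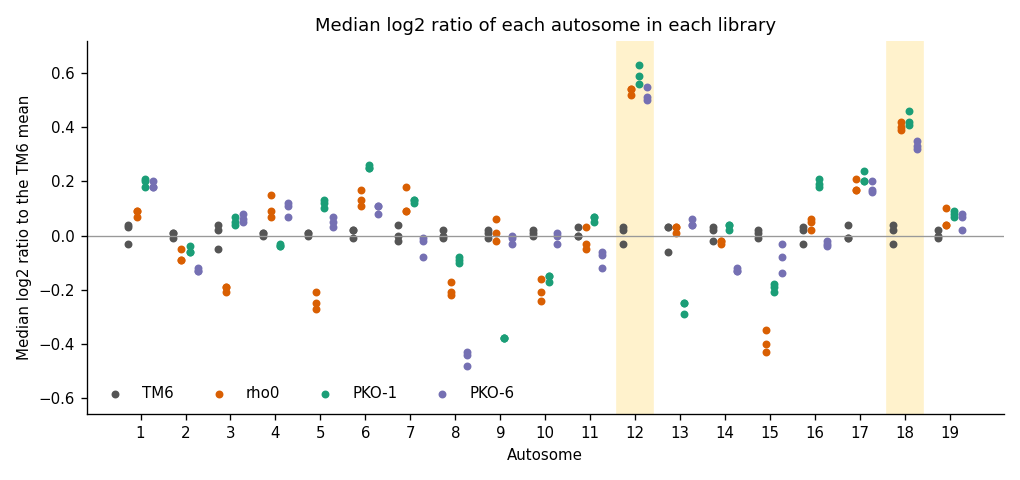
Each point is the median log2 ratio to the TM6 mean (y axis) over the genes of 1 autosome (x axis) in 1 library, coloured by line, with chromosomes 12 and 18 shaded. The 9 derived libraries sit between 0.50 and 0.63 on chromosome 12 and between 0.32 and 0.46 on chromosome 18, above their values on the 17 other autosomes.

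A median above 0 already places most genes above 0, so the shares that follow describe only how large that majority was. On chromosome 12, 345 of 416 genes (82.9%) had a ratio above 0 in rho0, 362 (87%) in PKO-1 and 351 (84.4%) in PKO-6. On chromosome 18 the counts were 245 of 326 (75.2%), 259 (79.4%) and 233 (71.5%). On the other autosomes 48.6%, 51.3% and 49.1% of 10749 genes lay above 0. Within 0.5 of the chromosome's own median lay 63%, 70.7% and 62.3% of chromosome 12 genes and 61%, 69.9% and 59.5% of chromosome 18 genes, in rho0, PKO-1 and PKO-6. This share was not computed for the other autosomes. Their 20th and 80th percentiles were -0.53 and 0.52 in rho0, -0.42 and 0.41 in PKO-1, and -0.48 and 0.52 in PKO-6. Genes elsewhere thus lay about as close to their own median, so closeness does not set the 2 chromosomes apart.

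The 2 chromosomes differed in the shape of the distribution. Chromosome 12 lay higher at low and high percentiles alike. Its 10th percentile exceeded that of the other autosomes by 0.67, 0.64 and 0.66 in rho0, PKO-1 and PKO-6, and its 90th percentile by 0.51, 0.56 and 0.63. On chromosome 18 the gap was 0.43, 0.41 and 0.34 at the median but 0.22, 0.11 and 0.13 at the 10th percentile, so that its lower genes lay nearly as low as those elsewhere. Single genes ranged on chromosome 12 from -6.65 (*Rin3* in PKO-1) to 5.76 (*Nrcam* in PKO-1), and on chromosome 18 from -7.30 (*Setbp1* in PKO-6) to 7.47 (*Slc14a1* in PKO-1), leaving aside *Fbn2*, which had at most 3.57 normalized counts in PKO-1 libraries.

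**Figure D2:**
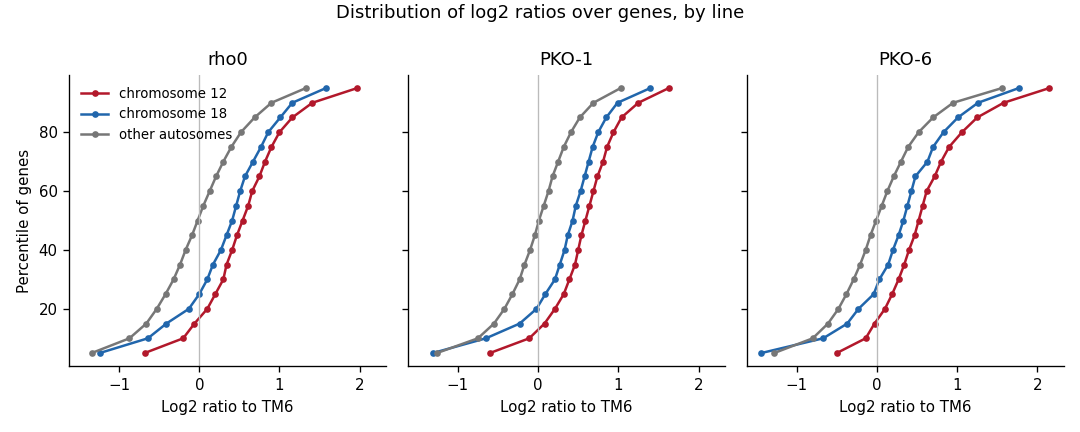
Each panel plots, for 1 derived line, the percentile of genes (y axis, every 5th percentile) against the log2 ratio to TM6 (x axis) for chromosome 12, chromosome 18 and the other autosomes. The chromosome 12 curve lies to the right at every percentile drawn, and the chromosome 18 curve joins that of the other autosomes at its lower end.

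Level and gene span were compared with the ratio. The 139 chromosome 12 genes with the lowest mean counts (50.5 to 908) had medians of 0.79, 0.72 and 0.77 in rho0, PKO-1 and PKO-6, against 0.45, 0.58 and 0.41 for the 139 with the highest counts. Genes of low count on the other autosomes were also higher in rho0 (0.18 against -0.12) and in PKO-6 (0.16 against -0.11), and in PKO-1 they were at 0.02 against 0.01. On chromosome 18 the 109 genes of lowest count had 0.46, 0.37 and 0.39 and the 109 of highest count 0.40, 0.45 and 0.31. Gene span gave little difference on chromosome 12, with 0.53, 0.53 and 0.53 for the shortest genes and 0.54, 0.59 and 0.53 for the longest. On chromosome 18 the shortest genes had 0.45, 0.53 and 0.36 and the longest 0.34, 0.41 and 0.31.

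Chromosome 12 was cut into 12 windows of 10 Mb by gene midpoint, counted from the start of the mm10 (GRCm38) sequence. Every one of them had a median above 0 in all 3 libraries of each derived line. Among 230 windows of the other autosomes with 5 or more genes, 39.1%, 54.3% and 40.4% were above 0 in all 3 libraries of rho0, PKO-1 and PKO-6. The chromosome 12 medians ranged from 0.25 to 1.00 in rho0, from 0.46 to 1.35 in PKO-1 and from 0.38 to 0.90 in PKO-6, with SDs over windows of 0.192, 0.234 and 0.132. Without the 5th window, from 40 to 50 Mb, the profile was flatter, as the plot of window medians shows.

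The window from 40 to 50 Mb held 13 genes and had the highest median on chromosome 12 in each line, at 1.00 ± 0.0206 in rho0, 1.35 ± 0.105 in PKO-1 and 0.90 ± 0.0446 in PKO-6. All 13 genes lay above 0 in each line. The lowest were *Dock4* in rho0 (0.44), *Ifrd1* in PKO-1 (0.22) and *Lrrn3* in PKO-6 (0.38), and the highest in all 3 lines was *Nrcam* (3.70, 5.76 and 5.27). Next to *Nrcam* lie *Stxbp6* (1.93, 2.33 and 1.71 in rho0, PKO-1 and PKO-6), whose product binds proteins of vesicle fusion, and *Pnpla8* (0.98, 0.82 and 0.80), which encodes a phospholipase. Further along, *Nova1* encodes a splicing regulator of neurons. *Stxbp6* had 274, 320 and 310 normalized counts in the TM6 libraries, 1125, 1139 and 1198 in rho0, 1626, 1503 and 1444 in PKO-1, and 993, 922 and 1065 in PKO-6. No derived library of *Stxbp6* overlapped with TM6, and the 3 derived lines did not overlap with each other.

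The lowest window of chromosome 12 differed between lines. In rho0 it was the window from 10 to 20 Mb, at 0.25 ± 0.0304 over 16 genes, where PKO-1 had 0.64 ± 0.0363 and PKO-6 0.49 ± 0.0292. This window holds *Trib2* and *Lpin1* with negative rho0 ratios (-2.08 and -1.56), and *Rdh14* (1.31) and *Nbas* (0.87) with positive ones. In PKO-1 and PKO-6 it was the window from 100 to 110 Mb, at 0.46 ± 0.0369 and 0.38 ± 0.0487 over 50 genes. The window with most genes, from 80 to 90 Mb, had 0.58, 0.60 and 0.60 in rho0, PKO-1 and PKO-6 over 76 genes, and the libraries of the 3 lines overlapped there.

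Chromosome 18 gave 9 windows with 5 or more genes, and all 9 lay above 0 in all 3 libraries of each line. The last stretch held *Tmx3* alone, at 0.57, 0.67 and 0.59. The medians ranged from 0.19 to 0.56 in rho0, from 0.28 to 0.55 in PKO-1 and from 0.07 to 0.42 in PKO-6. The lowest in rho0 and PKO-6 was the window from 10 to 20 Mb, with 0.19 ± 0.0246 and 0.07 ± 0.0522 over 22 genes. Without TM6 replicate 1, 88.9% of the 9 PKO-6 windows had a median above 0. Its genes ranged from *Cables1*, a cell cycle regulator with a mean of 231 normalized counts in TM6 and 1.44 in rho0, 1.09 in PKO-1 and 7.75 in PKO-6, to *Gata6*, a transcription factor with ratios of 1.38, 2.66 and 1.44.

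On chromosome 18 the order of the lines changed along the length. In the 4 windows from 0 to 40 Mb, PKO-1 was highest (0.54, 0.40, 0.55 and 0.49), rho0 was between (0.46, 0.19, 0.39 and 0.37), and PKO-6 was lowest (0.37, 0.07, 0.25 and 0.24). The PKO-1 libraries did not overlap with those of rho0 in any of these 4 windows, while PKO-6 and rho0 overlapped in the first. In the 4 windows from 50 to 90 Mb, PKO-1 was below rho0 in each, at 0.34, 0.28, 0.49 and 0.28 against 0.40, 0.46, 0.56 and 0.34, again without overlap. Lack of overlap was common, at 69.7% of 251 windows over all autosomes for PKO-1 against rho0 and 60.2% for PKO-6 against rho0. The window from 30 to 40 Mb holds 110 genes, among them the clustered protocadherins. In the window between, from 40 to 50 Mb, the libraries of the 3 lines overlapped.

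**Figure D3:**
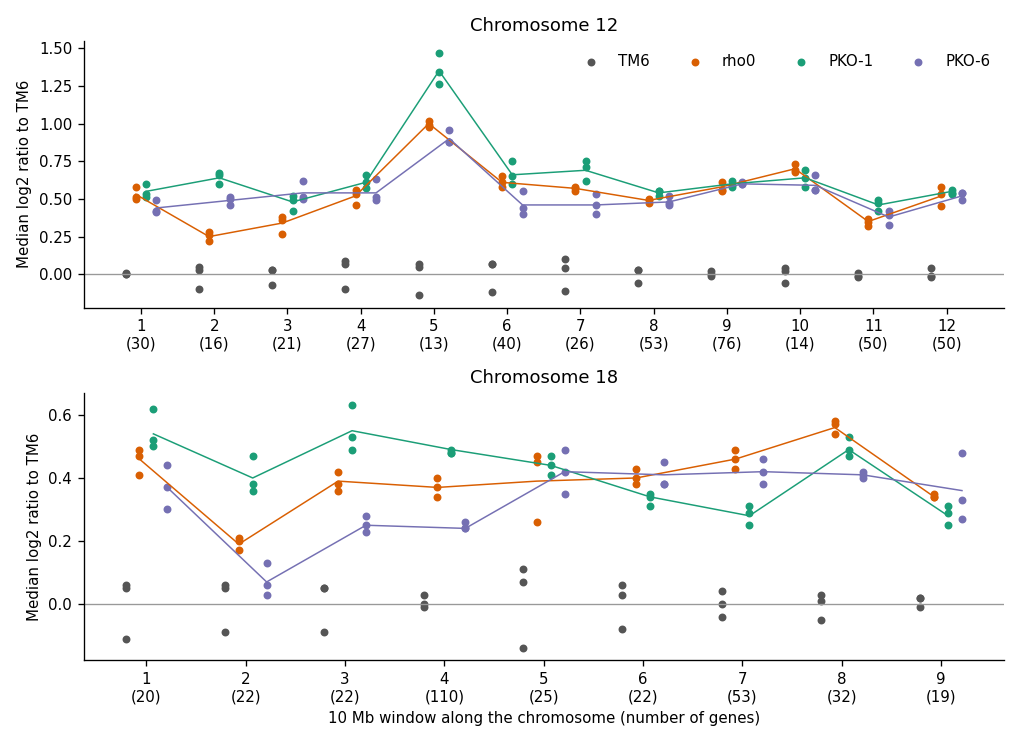
Points are median log2 ratios to TM6 (y axis) in 1 library over the genes of a 10 Mb window (x axis, window number and number of genes), lines join the means of each derived line, and the panels are chromosomes 12 and 18. All derived points lie above 0, window 5 of chromosome 12 stands out with libraries at 0.88 to 1.47, and PKO-1 passes from above rho0 to below it along chromosome 18.

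Window medians of the derived lines were also compared with each other, on the same scale of ratios to TM6. PKO-1 and rho0 did not overlap in 7 of 12 windows of chromosome 12, all higher in PKO-1, and in 8 of 9 of chromosome 18, with 4 higher and 4 lower in PKO-1, against 69.7% of 251 windows over all autosomes. PKO-6 and rho0 did not overlap in 7 windows of chromosome 12, with 2 higher and 5 lower in PKO-6, and in 4 of chromosome 18, all lower in PKO-6, against 60.2%. PKO-1 and PKO-6 did not overlap in 6 windows of chromosome 12, all higher in PKO-1, and in 7 of chromosome 18, with 5 higher and 2 lower in PKO-1, against 67.3%. The chromosome 12 share lay below the background in each comparison, and that of chromosome 18 above it except in PKO-6 against rho0.

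Over whole chromosomes the medians of ratios to TM6 were compared between derived lines. The PKO-1 median of chromosome 12 exceeded that of rho0 by 0.06 and that of PKO-6 by 0.08, and PKO-6 differed from rho0 by -0.01. By size, these differences ranked 12th, 13th and 16th of the 19 autosomes. On chromosome 18 PKO-1 minus rho0 was 0.03, PKO-1 minus PKO-6 was 0.10 and PKO-6 minus rho0 was -0.07, which ranked 16th, 12th and 10th. The other autosomes reached -0.40 (chromosome 9) and 0.36 (chromosome 5) for PKO-1 minus rho0, -0.37 (chromosome 9) and 0.36 (chromosome 8) for PKO-1 minus PKO-6, and -0.25 (chromosome 8) and 0.31 (chromosome 15) for PKO-6 minus rho0. In 4 of the 6 differences on chromosomes 12 and 18 the libraries of the lines did not overlap, and they overlapped in PKO-6 against rho0 on chromosome 12 and PKO-1 against rho0 on chromosome 18. A two-sided exact permutation test of 3 libraries against 3 cannot go below p = 0.1, so none could pass. The median of the gene-by-gene fold changes, which do not use TM6 levels, was on chromosome 18 -0.01 for PKO-1 against rho0, 0.05 for PKO-1 against PKO-6 and -0.07 for PKO-6 against rho0, so the sign of the first depends on the summary.

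**Figure D4:**
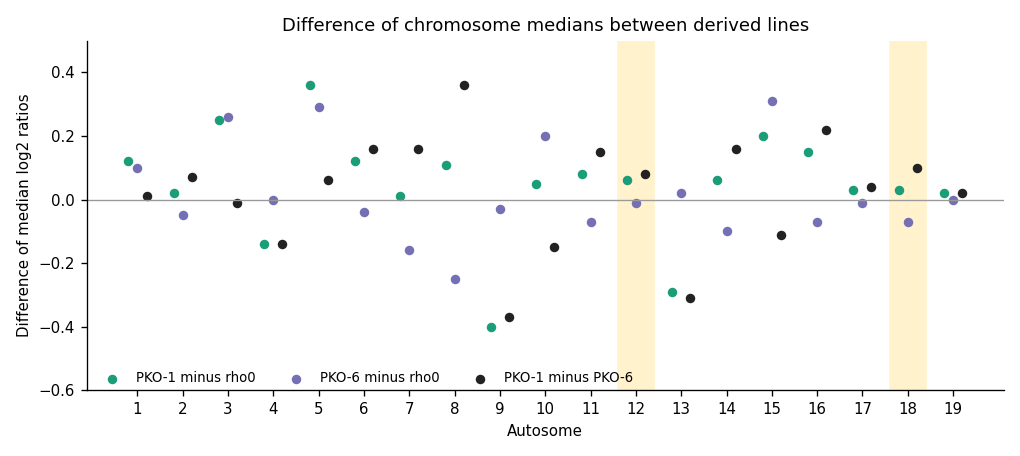
Each point is the difference between 2 derived lines in the median log2 ratio (y axis) of 1 autosome (x axis), with chromosomes 12 and 18 shaded. The shaded points lie between -0.07 and 0.10, while chromosomes 3, 5, 8, 9, 13 and 15 hold points beyond 0.25 in either direction.

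Genes were also called one by one, and the counts against TM6 are a description, since these contrasts chose the chromosomes. A gene was called at an adjusted p below 0.01 in edgeR's quasi-likelihood test and an absolute log2 fold change above 0.5. In rho0 against TM6, chromosome 12 had 217 higher and 28 lower genes by this call, while 20.7% of all 14026 genes tested were higher and 21.4% lower. In PKO-1 the counts were 245 higher and 23 lower, against 16.4% and 17.9% of all genes, and in PKO-6 208 higher and 21 lower, against 21.9% and 19.4%. On chromosome 18 they were 126 and 37 in rho0, 137 and 33 in PKO-1, and 109 and 41 in PKO-6. The median fitted fold change of all genes was 0.00 to 0.02 on the log2 scale in these comparisons.

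Along chromosome 12 the genes nearest the chromosome medians of the 3 lines, with a mean of 1000 or more counts, were *Cbll1*, *Pomt2* and *Snx13*. *Pomt2* encodes a protein O-mannosyltransferase, *Cbll1* an E3 ubiquitin ligase and *Snx13* a sorting nexin. *Pomt2* had 1589, 1536 and 1637 normalized counts in the TM6 libraries, 2392, 2244 and 2224 in rho0, 2350, 2354 and 2354 in PKO-1 and 2294, 2444 and 2136 in PKO-6. All 9 derived libraries lay above TM6 and those of the 3 derived lines overlapped or nearly touched, with log2 ratios of 0.53, 0.57 and 0.53. *Cbll1* stood at 0.50, 0.59 and 0.51 and *Snx13* at 0.45, 0.61 and 0.53.

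The chromosome 12 genes farthest above the chromosome median were *Nrcam*, *Map3k9*, *Acot2*, *Ttc9* and *Nova1*, among members with a mean of 100 or more counts and no overlap between TM6 and the derived libraries. *Nrcam* encodes a cell adhesion molecule of neurons. It had 12.1, 17.2 and 23.9 normalized counts in the TM6 libraries, 253, 261 and 227 in rho0, 1048, 975 and 1081 in PKO-1 and 673, 880 and 681 in PKO-6. *Map3k9*, a kinase upstream of JNK, had 45.0, 46.8 and 48.9 in TM6, 1142, 1126 and 1123 in rho0, 327, 344 and 319 in PKO-1 and 1027, 1030 and 974 in PKO-6. PKO-1 was the highest line for *Nrcam* and the lowest of the derived lines for *Map3k9*. *Acot2*, a mitochondrial acyl-CoA thioesterase whose reads may be shared with the related genes beside it, had 185 ± 15.3 in TM6 (SD, n = 3), 7002 ± 893 in rho0, 659 ± 54.7 in PKO-1 and 4499 ± 554 in PKO-6. *Ttc9*, a tetratricopeptide repeat protein, had log2 ratios of 2.66, 2.92 and 3.69 in rho0, PKO-1 and PKO-6, and *Nova1* had 2.46, 3.93 and 2.55.

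The sequence before and at the start of 3 of these chromosome 12 genes is given from RefSeq (build GRCm38.p6), from 250 bases before to 50 after the start, 5′ to 3′ on the gene's strand, with each CG dinucleotide in capitals. *Pomt2* is shown as a gene that followed the chromosome, *Nrcam* as the highest, and *Rin3*, an exchange factor for Rab GTPases, as the one with the largest difference between the knockout clones. *Rin3* had 750, 744 and 756 normalized counts in the TM6 libraries, 375, 332 and 334 in rho0, 5.95, 5.33 and 5.17 in PKO-1 and 923, 949 and 809 in PKO-6. The windows lie at chr12:87147853-87148152 (minus strand), chr12:44328635-44328934 (plus strand) and chr12:102282824-102283123 (plus strand).
Pomt2: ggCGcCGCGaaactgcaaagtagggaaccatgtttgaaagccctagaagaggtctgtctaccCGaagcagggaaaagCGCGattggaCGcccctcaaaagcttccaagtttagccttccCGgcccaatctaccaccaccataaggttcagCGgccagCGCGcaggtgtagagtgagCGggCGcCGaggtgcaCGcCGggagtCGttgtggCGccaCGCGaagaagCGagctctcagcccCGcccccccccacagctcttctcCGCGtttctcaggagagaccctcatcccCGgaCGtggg
Nrcam: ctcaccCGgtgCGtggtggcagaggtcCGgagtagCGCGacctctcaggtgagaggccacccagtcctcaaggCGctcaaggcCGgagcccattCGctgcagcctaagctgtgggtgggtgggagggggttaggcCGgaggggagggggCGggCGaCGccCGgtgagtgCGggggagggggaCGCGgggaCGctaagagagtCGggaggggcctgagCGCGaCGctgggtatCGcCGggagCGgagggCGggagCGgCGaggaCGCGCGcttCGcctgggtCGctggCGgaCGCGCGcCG
Rin3: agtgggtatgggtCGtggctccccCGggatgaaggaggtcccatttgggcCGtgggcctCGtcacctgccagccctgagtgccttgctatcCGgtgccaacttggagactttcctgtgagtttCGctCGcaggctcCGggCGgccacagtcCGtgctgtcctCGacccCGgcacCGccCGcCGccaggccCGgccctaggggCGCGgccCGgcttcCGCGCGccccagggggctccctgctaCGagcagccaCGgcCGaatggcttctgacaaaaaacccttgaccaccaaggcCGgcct
The motif searched was CG, which reads the same on both strands. It occurred 26 times in the *Pomt2* window, 37 times in that of *Nrcam* and 26 times in that of *Rin3*, and at least as many CG were held by 22.7%, 7.12% and 22.7% of 17342 promoters of the same length. At least 1 CG was found in 95.2% of all promoters. *Pomt2* and *Rin3* held equal numbers of CG, near the median of the chromosome 12 members given next, although their ratios differ. *Nrcam* held more. Over the 348 chromosome 12 members with a promoter in the table (83.7%), the median was 24 CG. No comparison with the other autosomes was drawn, since a smaller share of their genes (78.3%) had one. The 116 chromosome 12 members with fewest CG had median log2 ratios of 0.62, 0.69 and 0.59 in rho0, PKO-1 and PKO-6, and the 116 with most had 0.43, 0.56 and 0.48.

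Against this level, *Ltbp2*, *Adcy3*, *Clmn*, *Lpin1* and *Tgfb3* were the chromosome 12 genes farthest below the chromosome median. *Ltbp2*, a matrix protein of the latent TGF-beta binding family, had 2193, 1955 and 1824 normalized counts in the TM6 libraries, 193, 157 and 169 in rho0, 496, 548 and 568 in PKO-1 and 108, 96.4 and 68.8 in PKO-6. *Adcy3*, an adenylate cyclase, had 918, 890 and 842 in TM6, 389, 369 and 393 in rho0, 9.52, 13.8 and 17.6 in PKO-1 and 232, 217 and 188 in PKO-6. The 4 lines did not overlap in either gene, and the lowest line was PKO-6 for *Ltbp2* and PKO-1 for *Adcy3*. *Clmn*, an actin-binding membrane protein, had log2 ratios of -3.10, -3.47 and -1.42 in rho0, PKO-1 and PKO-6. *Lpin1*, a phosphatidate phosphatase, had -1.56, -1.43 and -1.15, and *Tgfb3*, a TGF-beta ligand, -1.69, -0.78 and -1.16. *Ltbp2* overlaps a gene on the opposite strand, as does *Adcy3*, and whether strand was used in the counting is not given in the sources used here.

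Between the derived lines, genes of chromosome 12 were tested with edgeR, and these fold changes do not use TM6 levels. PKO-1 had 71 genes higher and 64 lower than rho0, or 17.1% and 15.4%, where 15.1% and 17.6% of all tested genes were called. PKO-6 had 44 higher and 27 lower than rho0, or 10.6% and 6.49%, against 13.3% and 8.16%. Without rho0 replicate 1 the lower genes numbered 44 and the higher 45. PKO-1 had 46 higher and 53 lower than PKO-6, or 11.1% and 12.7%, against 11.5% and 17.6%. The median log2 fold change of the chromosome was 0.09, 0.00 and 0.05 in size in the 3 comparisons.

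The largest of these differences were many times the chromosome-wide ones. *Rin3* was lower in PKO-1 than PKO-6, with a log2 fold change of -7.32 (SE 0.142, adjusted p = 2.41e-13, edgeR's quasi-likelihood test with Benjamini-Hochberg adjustment over all genes), and lower in PKO-1 than rho0, with -5.96 (SE 0.15). The few *Rin3* counts in PKO-1 make both folds less precise than these SEs, which were derived from the test statistic. *Pygl*, liver-type glycogen phosphorylase, had 91.0, 79.8 and 70.3 normalized counts in rho0, 8.33, 9.59 and 6.21 in PKO-1 and 346, 369 and 320 in PKO-6, with no overlap between the lines. *Etv1*, an ETS transcription factor, was higher than in rho0 in PKO-1 (log2 fold change 2.82, SE 0.0728) and in PKO-6 (2.12, SE 0.0721), while rho0 and TM6 were nearly level (245 ± 7.49 and 261 ± 14.6 normalized counts, SD, n = 3). *Hhipl1* had 2136, 2115 and 2114 in rho0, 92.9, 111 and 117 in PKO-1 and 451, 301 and 357 in PKO-6. *Trib2*, a pseudokinase, was higher in PKO-1 than in rho0 by 3.71 (SE 0.121, edgeR's adjusted p = 2.66e-11). *Pgf*, which encodes placental growth factor, was higher than in rho0 in PKO-1 (2.07, SE 0.112), and *Ston2*, an endocytic adaptor, was higher in PKO-6 than in rho0 (2.53, SE 0.098).

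*Dlk1*, the paternally expressed gene of the *Dlk1*-*Dio3* imprinted cluster on chromosome 12, was the only 1 of 7 listed genes of that cluster to reach the count limit. It had 387, 276 and 287 normalized counts in rho0, 45.2, 53.3 and 38.3 in PKO-1 and 68.8, 86.0 and 56.2 in PKO-6, against 112, 103 and 82.8 in TM6. It was lower than in rho0 in PKO-1 (log2 fold change -2.80, SE 0.202) and in PKO-6 (-2.17, SE 0.189), with edgeR's adjusted p = 5e-08 and 5.23e-07. The clones did not differ past the threshold (PKO-1 against PKO-6 -0.62, SE 0.217, edgeR's adjusted p = 0.0235).

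On chromosome 18 the genes nearest the chromosome medians were *Wdr33*, *Zadh2* and *Fem1c*. *Wdr33* encodes a part of the complex that cleaves and polyadenylates pre-mRNA. It had 5828, 5848 and 5887 normalized counts in the TM6 libraries, 7897, 7733 and 7906 in rho0, 7653, 7855 and 7664 in PKO-1 and 7380, 7524 and 6891 in PKO-6. All derived libraries lay above TM6, with log2 ratios of 0.42, 0.40 and 0.31. *Zadh2*, an oxidoreductase, had 0.41, 0.42 and 0.29, and *Fem1c*, a substrate receptor of a ubiquitin ligase, 0.45, 0.43 and 0.39.

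Farthest above the chromosome 18 median were *Stk32a*, *Zbtb7c*, *Pmaip1*, *Prob1* and *Gata6*, by the same rule. *Pmaip1*, whose product Noxa promotes apoptosis, had 179, 187 and 201 normalized counts in the TM6 libraries, 970, 907 and 899 in rho0, 750, 602 and 618 in PKO-1 and 2490, 2333 and 2888 in PKO-6. *Zbtb7c*, a zinc finger transcription factor, had 88.2, 75.5 and 67.8 in TM6, 855, 799 and 782 in rho0, 593, 628 and 621 in PKO-1 and 945, 904 and 867 in PKO-6. PKO-6 was highest and PKO-1 lowest of the derived lines in both genes. *Stk32a*, a kinase, had log2 ratios of 2.79, 1.97 and 5.33 in rho0, PKO-1 and PKO-6, *Prob1* 2.46, 1.82 and 2.16, and *Gata6* was highest in PKO-1.

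Farthest below were *Fbn2*, *Setbp1*, *Lipg*, *Sh3rf2* and *Synpo*. *Fbn2*, which encodes the matrix protein fibrillin-2, had 2031, 1885 and 1705 normalized counts in the TM6 libraries, 951, 1044 and 1009 in rho0, 3.57, 0 and 0 in PKO-1 and 45.0, 37.3 and 43.6 in PKO-6. *Setbp1*, a DNA-binding protein that binds SET, had 1670, 1618 and 1556 in TM6, 367, 411 and 372 in rho0, 271, 317 and 357 in PKO-1 and 10.6, 12.4 and 3.88 in PKO-6. The lowest line was PKO-1 for *Fbn2* and PKO-6 for *Setbp1*, and no fold is given for *Fbn2* in PKO-1. *Lipg*, endothelial lipase, had log2 ratios of -5.67, -4.45 and -3.96 in rho0, PKO-1 and PKO-6, *Sh3rf2*, a RING finger protein, -4.42, -3.91 and -3.29, and *Synpo*, an actin-associated protein, -2.94, -1.16 and -2.90.

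**Figure D5:**
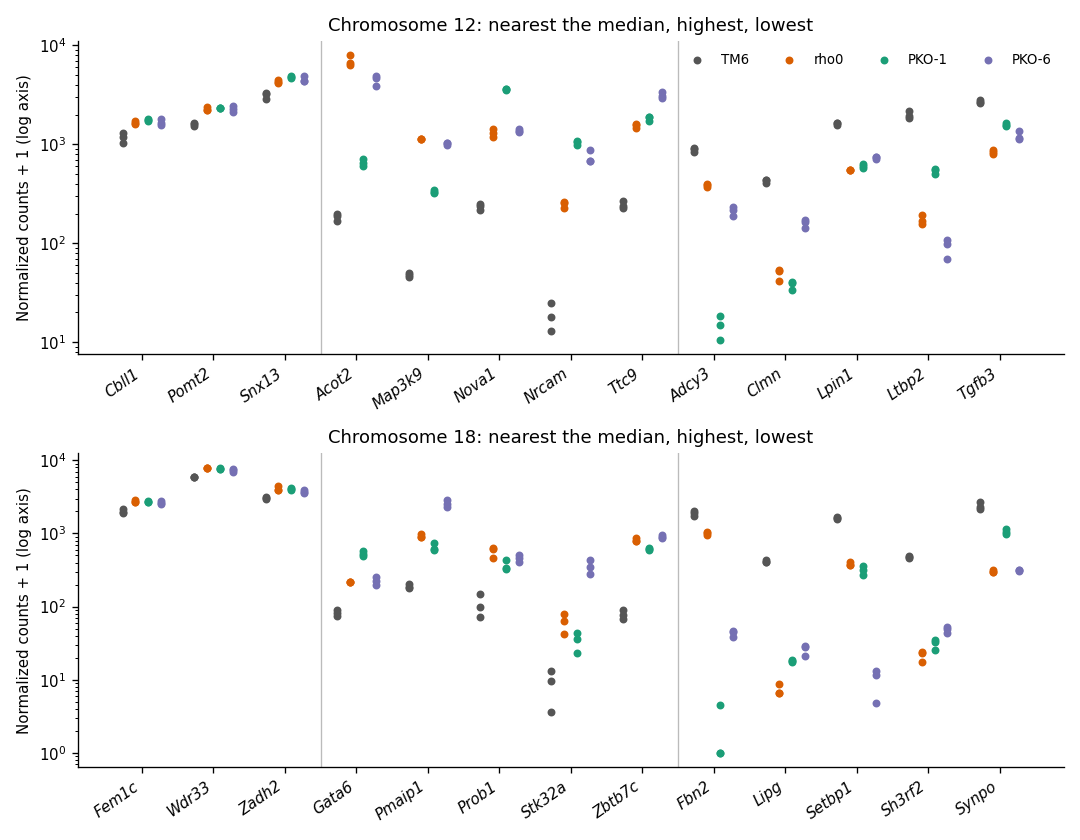
Normalized counts plus 1 (log axis) of the named genes (x axis) in each library, coloured by line, for chromosome 12 above and chromosome 18 below, in blocks of the genes nearest the chromosome median, farthest above it and farthest below it. The typical genes show a small step between TM6 and the derived lines, and the other blocks show steps of up to *Fbn2* at 0 in 2 PKO-1 libraries.

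Between the derived lines, PKO-1 had 47 chromosome 18 genes higher and 52 lower than rho0, or 14.4% and 16% (edgeR), against the 15.1% and 17.6% of all genes. PKO-6 had 36 higher and 34 lower than rho0, or 11% and 10.4%, against 13.3% and 8.16%. PKO-1 had 50 higher and 45 lower than PKO-6, or 15.3% and 13.8%, against 11.5% and 17.6%. *Slc14a1*, a urea transporter, had 34.6, 53.5 and 30.9 normalized counts in the TM6 libraries, 216, 126 and 145 in rho0, 7134, 7015 and 7459 in PKO-1 and 19.7, 33.2 and 19.4 in PKO-6. PKO-1 was higher than PKO-6 by a log2 fold change of 8.24 (SE 0.201, adjusted p = 1.18e-12, edgeR's quasi-likelihood test). *Setbp1* was lower in PKO-6 than in rho0 (log2 fold change -5.39, SE 0.202), and *Pard6g*, a cell polarity gene, lower in PKO-1 than in rho0 (-2.28, SE 0.173). The few *Setbp1* counts in PKO-6 make its fold less precise than that SE. *Arap3*, a GTPase-activating protein, was higher in PKO-6 than in rho0 by 4.99 (SE 0.204, edgeR's adjusted p = 2.96e-10), and *Fhod3*, a formin that overlaps *Tpgs2* on the opposite strand, by 2.64 (SE 0.187).

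Genes of both chromosomes were then read by role. Of 25 listed genes of mitochondrial proteins on the 2 chromosomes, 23 were members, with medians of 0.38, 0.53 and 0.28 in rho0, PKO-1 and PKO-6. Between the derived lines none of them rose in the edgeR tests, where 15.1%, 13.3% and 11.5% of all genes did. In PKO-1 against rho0 4 fell (17.4%, against 17.6% of all genes), in PKO-6 against rho0 3 fell (13%, against 8.16%), and in PKO-1 against PKO-6 4 fell (17.4%, against 17.6%). The shares that fell with PKO-1 were thus near those of all genes. *Hspa9*, a mitochondrial chaperone, had 46025 ± 2596 normalized counts in the TM6 libraries (SD, n = 3), 139728 ± 8647 in rho0, 74935 ± 4518 in PKO-1 and 113298 ± 1696 in PKO-6. *Acot2*, *Immp2l* and *Aldh7a1* also fell in PKO-1 against rho0, with log2 fold changes of -3.41, -1.01 and -0.87. *Atp5a1*, a subunit of ATP synthase, had 38934 ± 1003, 47565 ± 5087, 47516 ± 2116 and 38706 ± 3524 in TM6, rho0, PKO-1 and PKO-6.

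Genes of translation and protein folding (20 members of 20 listed on the 2 chromosomes) had medians of 0.45, 0.46 and 0.36. Among them were 3 cytosolic aminoacyl-tRNA synthetases with higher ratios than the chromosome. *Wars*, for tryptophan, had 3954 ± 116 normalized counts in the TM6 libraries (SD, n = 3), 19570 ± 1608 in rho0, 7142 ± 205 in PKO-1 and 13992 ± 929 in PKO-6. *Lars*, for leucine, had log2 ratios of 2.10, 0.69 and 1.57, and *Nars*, for asparagine, 1.53, 0.55 and 1.28. All 3 fell in PKO-1 against rho0 (log2 fold changes -1.45, -1.41 and -0.97) and in PKO-1 against PKO-6 (-0.97, -0.88 and -0.72). *Hars*, for histidine, went another way, with ratios of -0.04, 0.30 and -0.36. Of the 20 genes, 0 rose and 5 fell in PKO-1 against rho0 (25% fell, against 17.6% of all genes, edgeR), 0 rose and 1 fell in PKO-6 against rho0 (5%, against 8.16%), and 2 rose and 4 fell in PKO-1 against PKO-6 (10% and 20%, against 11.5% and 17.6%).

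The 12 members among extracellular matrix and cell surface genes had medians of -0.56, 0.16 and -0.30 in rho0, PKO-1 and PKO-6. In PKO-1 against rho0 4 rose and 1 fell (33.3% and 8.33%, against 15.1% and 17.6% of all genes, edgeR). In PKO-6 against rho0 2 rose and 4 fell (16.7% and 33.3%, against 13.3% and 8.16%). In PKO-1 against PKO-6 5 rose and 2 fell (41.7% and 16.7%, against 11.5% and 17.6%). *Lox*, the enzyme that crosslinks collagen and elastin, had 41980 ± 3125 normalized counts in the TM6 libraries (SD, n = 3), 28805 ± 687 in rho0, 30993 ± 1503 in PKO-1 and 11121 ± 682 in PKO-6. *Pdgfrb*, a growth factor receptor of fibroblasts, had 6986 ± 339, 2530 ± 179, 3001 ± 229 and 1542 ± 89.9. Both were lower in PKO-6 than in rho0 (log2 fold changes -1.37 and -0.71, called by edgeR), as were *Fbln5*, an elastic fibre protein (-1.18), and *Fbn2* (-4.56). *Flrt2*, a membrane protein, rose in PKO-1 against rho0 (1.40), as did *Sdc1* (1.00), *Pxdn* (0.70) and *Adam17* (0.51). The 6 members of TGF-beta signalling had medians of -0.21, 0.19 and -0.18. Of these 6, 3 rose and 0 fell in PKO-1 against rho0 (50% and 0%). In PKO-6 against rho0 1 rose and 1 fell (16.7% each), and in PKO-1 against PKO-6 2 rose and 0 fell (33.3% and 0%). The shares of all genes are those given for the matrix list. In this list *Smad2* and *Smad4*, the signal transducers, stayed near the chromosome (0.50, 0.32 and 0.40, and 0.49, 0.30 and 0.39), while *Tgfb3* and *Ltbp2* were far below.

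Early response and transcription factor genes (25 members) had medians of -0.07, 0.46 and 0.10. In PKO-1 against rho0 11 rose and 2 fell (44% and 8%, against 15.1% and 17.6% of all genes, edgeR). In PKO-1 against PKO-6 12 rose and 4 fell (48% and 16%, against 11.5% and 17.6%), and in PKO-6 against rho0 4 rose and 3 fell (16% and 12%, against 13.3% and 8.16%). *Egr1*, an immediate early gene, had 1313, 1237 and 1524 normalized counts in rho0, 7019, 6204 and 8166 in PKO-1 and 8762, 2887 and 12167 in PKO-6, so the PKO-6 libraries differed from each other by more than PKO-1 differed from TM6 (4881 ± 432, SD, n = 3). *Fos* varied likewise in PKO-6, with 235, 131 and 315 against 52.3, 37.7 and 49.1 in rho0. *Id2*, an inhibitor of basic helix-loop-helix factors, rose in PKO-1 against rho0 (2.00, SE 0.0809) and PKO-6 (2.58, SE 0.0831).

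Cell cycle and genome maintenance genes (34 members) had medians of 0.37, 0.44 and 0.22. In PKO-1 against rho0 8 rose and 1 fell (23.5% and 2.94%, against 15.1% and 17.6% of all genes, edgeR), in PKO-1 against PKO-6 7 rose and 1 fell (20.6% and 2.94%, against 11.5% and 17.6%), and in PKO-6 against rho0 3 rose and 1 fell (8.82% and 2.94%, against 13.3% and 8.16%). *Rrm2*, a subunit of ribonucleotide reductase, had 9991 ± 334 normalized counts in the TM6 libraries (SD, n = 3), 5523 ± 290 in rho0, 11403 ± 325 in PKO-1 and 6918 ± 437 in PKO-6. *Kif20a*, a mitotic kinesin, rose in PKO-1 against rho0 by 0.93. *Pole2*, a DNA polymerase subunit, kept to the chromosome in all 3 lines, at 0.66, 0.66 and 0.51. Cytoskeleton and kinase signalling genes (23 members) had 0.34, 0.59 and 0.45, with *Rock2* at 0.77, 0.69 and 0.67 and *Rock1*, on the other chromosome, at 0.27, 0.59 and 0.20.

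The clustered protocadherins of chromosome 18, cell adhesion genes each started from its own promoter, lie within the window from 30 to 40 Mb. Of 58 listed, 27 were members, with medians of -0.06, -0.24 and -0.41 in rho0, PKO-1 and PKO-6. In PKO-1 against rho0 5 rose and 11 fell (18.5% and 40.7%, against 15.1% and 17.6% of all genes, edgeR). In PKO-6 against rho0 1 rose and 10 fell (3.7% and 37%, against 13.3% and 8.16%), and in PKO-1 against PKO-6 8 rose and 3 fell (29.6% and 11.1%, against 11.5% and 17.6%). Genes of the gamma cluster share their last exons, so their counts may be split between members. *Pcdhga10* had 541, 533 and 574 normalized counts in rho0, 430, 346 and 388 in PKO-1 and 135, 104 and 97.0 in PKO-6. *Cdh2*, N-cadherin, was the 1 member of 10 listed classical and desmosomal cadherins, at -0.07, 0.40 and -0.62, and of 22 serpin A genes of chromosome 12 none was a member.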

How the data were processed

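RNA-seq data of 12 libraries (TM6, rho0, PKO-1 and PKO-6, 3 each, grouped per the labels) were used. The authors depleted ribosomal RNA, made stranded libraries and merged technical duplicates. The deposited gene table holds expected counts, estimated by the authors with RSEM 1.2.25 and bowtie2 on RefSeq transcripts of mm10 and not normalized. The deposited per-library files also hold TPM, used here only as an alternative, and give each gene's position (starts count from 0 and were raised by 1). Depth was 47164860 to 67991378 counts per library, which includes *Rn45s*.

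Counts were rounded and scaled by TMM in edgeR 4.0.16 (R 4.3.3) over the 14026 genes passing filterByExpr with a minimum count of 10. Log2 CPM used a prior count of 2. Ratios subtract the TM6 mean, or for a TM6 library the mean of the other TM6 libraries. They were summarised as medians per chromosome and per 10 Mb window of gene midpoints. Windows with fewer than 5 genes were not ranked. Derived lines were compared with edgeR's quasi-likelihood test in 1 fit of 4 lines, p adjusted by Benjamini-Hochberg over all tested genes. SE is the absolute log2 fold change divided by the square root of F. Where a line has few counts it can understate the error of the fold. The steps were tried on simulated counts. Of the genes listed on chromosome 12 or 18, 7 are also listed elsewhere and were left out. Promoters came from RefSeq for 348 chromosome 12 members, and none was used for chromosome 18.

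Named genes were *Pnpt1*, role list genes, per chromosome the 3 members nearest the medians, the 5 highest and 5 lowest, the 3 higher and 3 lower per comparison of derived lines with the largest called change without overlap, and the first and last member. Not every gene so admitted is printed. Other window and threshold genes were named after their values were seen. Members, lists and rules were chosen with earlier results of these data known. Alternatives were other scalings, filters, prior counts, summaries, windows, thresholds, DESeq2 1.42.0, a replicate block, each line pair alone and each library left out, and 3 were added after seeing the data. Correlations of same-numbered libraries lay within the range of pairs with unlike numbers. Some items are not reported here.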

Additional observations from a re-analysis of the deposited data

Results flagged for a closer look

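In 8 genes, 6 on chromosome 12 and 2 on chromosome 18, derived lines lay on opposite sides of TM6, with log2 ratios beyond 1 in both directions, and differed from each other in edgeR's quasi-likelihood test after Benjamini-Hochberg adjustment. These genes, with a mean of 100 or more counts, gave 11 such differences. They were 1.15% of 693 members with that mean, against 0.883% of 11213 genes of the series under the same rule.

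*Trib2* was higher in PKO-1 than in rho0 (log2 fold change 3.71) and than in PKO-6 (2.77), with 1259, 1227 and 1396 normalized counts in PKO-1 against 425, 441 and 388 in TM6. *Pygl* was lower in PKO-1 than in rho0 (-3.31) and than in PKO-6 (-5.41). *Dlk1* was lower in PKO-1 than in rho0 (-2.80). *Jakmip2* was higher in PKO-1 than in rho0 (3.26), at 627, 566 and 549 against 53.3, 63.2 and 65.9. *Arap3* was higher than in rho0 in PKO-1 (2.87) and in PKO-6 (4.99), where it had 454, 436 and 366 against 11.6, 11.1 and 16.7. *Rnf113a2*, which overlaps *Bbof1* on the same strand, was lower in PKO-6 than in rho0 (-4.44). *Asap2*, which overlaps *Itgb1bp1* on the opposite strand, was lower in PKO-1 than PKO-6 (-2.57), at 182, 174 and 172 against 1035, 1051 and 1041. *Ifi27*, an interferon-induced gene, was higher in PKO-1 than in PKO-6 (2.43).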

How the results depend on the processing

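All 6 chromosome medians kept their sign under every alternative run. They moved by more than the spread between replicates as follows. Totals without *Rn45s* and without TMM gave chromosome 12 medians of 0.59 (rho0) and 0.59 (PKO-6), and chromosome 18 medians of 0.45 (rho0) and 0.41 (PKO-6). Deposited TPM gave 0.51, 0.52 and 0.46 for rho0, PKO-1 and PKO-6 on chromosome 12, and 0.36 (PKO-1) and 0.27 (PKO-6) on chromosome 18. The median of the other autosomes subtracted gave 0.56 (rho0, chromosome 12). These settings were chosen after seeing the data. A trimmed mean gave 0.56 (PKO-6, chromosome 12), and 0.37 (rho0) and 0.38 (PKO-1) on chromosome 18. With each library left out, the medians ranged on chromosome 12 from 0.50 to 0.55 (rho0), 0.54 to 0.61 (PKO-1) and 0.47 to 0.54 (PKO-6), and on chromosome 18 from 0.37 to 0.41, 0.38 to 0.44 and 0.28 to 0.34. The cause was not tested. The share of windows above 0 was 100% at the other scalings, filters and prior counts run, and with windows of 5 or 20 Mb or runs of 25 genes.

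Called genes moved by over 1.5 times with the threshold alone. At an adjusted p below 0.05 without a fold limit there were 300, 216 and 272 on chromosome 12 and 226, 181 and 203 on chromosome 18 (PKO-1 against rho0, PKO-6 against rho0, PKO-1 against PKO-6). At an absolute log2 fold change above 1 there were 60, 30 and 45, and 46, 33 and 31. The shares of all tested genes at these other limits were not computed. The counts therefore describe only the effect of the limit and not a trait of the chromosomes. The balance of directions also depended on the limit. Without a fold limit, PKO-1 against PKO-6 on chromosome 12 had 160 higher and 112 lower genes, where the main limits gave 46 and 53. PKO-6 against rho0 on chromosome 18 had 73 higher and 108 lower, where the main limits gave 36 and 34. With each library left out, counts ranged from 119 to 147, 65 to 89 and 95 to 103, and from 92 to 106, 61 to 77 and 92 to 96. The genes named for the largest changes between derived lines kept their calls with DESeq2, other scalings, a replicate block and each library left out. Their calls at other thresholds, and the calls of other named genes, were not checked in this way.

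Over 18 pairs of libraries with the same replicate number in different lines, deviations correlated at -0.385 to 0.25 (median 0.124). Over 36 pairs with unlike numbers they correlated at -0.415 to 0.49 (median -0.047). In TM6 and PKO-6 every same-number pair was above 0.1 (0.25, 0.25 and 0.209), and in no other pair of lines were all 3. These values lie within the range of pairs with unlike numbers, so they do not show a shared batch. A replicate block gave 135, 72 and 99 called genes on chromosome 12 and 100, 66 and 94 on chromosome 18, and medians within the same number of 0.53, 0.59 and 0.52, and 0.39, 0.42 and 0.32.

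With 1 rho0 clone and 2 knockout clones, clone and treatment cannot be told apart. Genes near the limit of 50 counts have the least precise ratios.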
